A study of Mus musculus with 25 samples.

Results

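The lipins are the 3 members of a family of phosphatidate phosphatases, encoded by Lpin1, Lpin2 and Lpin3. They were taken by name from the deposited array files, through the accession that stands beside each probe, and all of their probes are shown. They make up 3 of the 17016 gene symbols that could be assigned and 5 of the 41174 probes. Lpin2 was chosen by its low measured level in the older knockout livers, so its values in comparisons with the 8- and 12-month knockout or 12-month wild-type tissue are given as a description, with no test.

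Lipins remove the phosphate of phosphatidate on the endoplasmic reticulum and so make the diacylglycerol that enters triglyceride, phosphatidylcholine and phosphatidylethanolamine. Lipin 1 also enters the nucleus, where it works with PPAR-alpha and PGC-1-alpha on genes of fatty acid oxidation. Its transcript is known to be induced in liver by fasting and glucocorticoids, and its loss causes the fatty liver dystrophy (fld) mouse. Lipin 2 is abundant in liver, and mutations of the human gene cause Majeed syndrome. Lipin 3 is best known from the gut.

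RNA of whole liver homogenates was hybridised to 25 single-colour arrays from untreated mice. At 2 months of age there were 3 Mcl-1 knockout mice, 3 Mcl-1 hemizygous mice and 2 wild-type mice. Tumor and non-tumor tissue came from 3 knockout mice of 8 months and 4 knockout mice of 12 months, and there were 3 wild-type mice of 12 months. Mcl-1 keeps cells from undergoing apoptosis, and it was deleted in hepatocytes only, while the other cells of the homogenate kept the gene. The labels mark the knockout "ff" and the hemizygous mice "fplus". They do not name the Cre driver, the deleted stretch, the sex of the mice or the hour at which tissue was taken.

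Between 60.3% and 84.9% of probes were well above background per array, the highest value belonging to 12-month wild-type animal 641, and the arrays lay on 8 slides scanned on 2 days. The targeted transcript, Mcl1, averaged 1.75 in 2-month knockout, 3.29 in hemizygous and 4.21 in wild-type livers on the level scale explained below (knockout minus wild-type -2.46, SE 0.37, limma adjusted p = 0.040). No gene passed in that comparison without any 1 of the 3 knockout animals, with the compared groups fitted alone or with the slide as a random block, so the Mcl1 call was lost there. Labelled liver tissue carried its defining transcripts: the mean level of 6 hepatocyte markers lay between 5.98 and 7.41 on every array, and each was well above background on at least 1 array of every group.

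A level here is the log2 of the processed signal minus the 75th percentile of that array, so that 0 marks a spot brighter than 75% of the array. All 5 lipin probes were well above background on all 25 arrays, and none was saturated. Lpin1 lies on the minus strand of chromosome 12 (GRCm38.p6, 16535669 to 16653903) and has 3 probes, of which the brightest, A_52_P483101, represents it. Lpin2 lies on chromosome 17 (71183532 to 71249818) with the single probe A_51_P370438, and Lpin3 on chromosome 2 (160880670 to 160906000) with the single probe A_51_P345975. Which exon or UTR each probe reads was not analysed here.

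The upstream windows of Lpin1 and Lpin2 are shown because these transcripts are the pair that was lower in knockout liver at 2 months. Each window holds the 250 bases before a transcription start listed in RefSeq for GRCm38.p6, read 5′ to 3′ on the strand of the gene. The Lpin1 window lies at chr12:16610967-16611216 on the minus strand, inside the span of the gene. The Lpin2 window lies at chr17:71183282-71183531 on the plus strand, at the outermost of 3 starts in the table. Capitals mark the glucocorticoid receptor half-site TGTTCT and the nuclear receptor half-site AGGTCA in Lpin1 and the E-box CACGTG in Lpin2.
Lpin1: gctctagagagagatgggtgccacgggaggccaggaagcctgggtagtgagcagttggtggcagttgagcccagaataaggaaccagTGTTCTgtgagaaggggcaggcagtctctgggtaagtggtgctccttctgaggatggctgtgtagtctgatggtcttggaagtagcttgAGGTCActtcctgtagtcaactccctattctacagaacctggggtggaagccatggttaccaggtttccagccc
Lpin2: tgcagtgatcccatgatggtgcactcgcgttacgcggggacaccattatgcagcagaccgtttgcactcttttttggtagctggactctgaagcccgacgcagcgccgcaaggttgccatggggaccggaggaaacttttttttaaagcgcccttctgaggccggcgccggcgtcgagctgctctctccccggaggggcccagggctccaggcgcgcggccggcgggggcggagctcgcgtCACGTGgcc

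Both strands were searched for these motifs, for the GC box GGGCGG and for the D-box TTATGNAA. In Lpin1, TGTTCT begins 163 bases before the start and AGGTCA 74 bases before it. Of 32851 such windows in the RefSeq table, 16.1% hold TGTTCT and 14% hold AGGTCA. In Lpin2, CACGTG begins 9 bases before the start and is held by 6.02% of windows, and a GC box begins 24 bases before the start and is held by 32.7%. The Lpin1 window holds no CACGTG, and the Lpin2 window shown holds neither TGTTCT nor AGGTCA. The half-site TGTTCT also begins 203 bases before the innermost Lpin2 start and 245 bases before the outermost Lpin3 start. A match is a run of letters and does not show that a factor binds, and a missing match says only that these letters are not in this window.

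Lpin1 was far lower in the young knockout livers than in their hemizygous and wild-type counterparts. Its level was 2.08, 3.05 and 4.11 in the 2-month knockout mice (animals 137, 64 and 69), 5.64, 5.79 and 6.31 in the hemizygous mice (animals 27, 28 and 30) and 6.56 and 6.22 in the wild-type mice (animals 31 and 34). All 3 knockout values lay below every hemizygous and wild-type value, and the knockout mice were spread over more than 2 log2 units while the other groups were tight. Group means were 3.08 ± 1.01 (SD, n = 3) in knockout, 5.91 ± 0.35 (n = 3) in hemizygous and 6.39 ± 0.24 (n = 2) in wild-type mice. In whole tissue, fewer cells of a type and less RNA per cell cannot be told apart.

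Knockout against wild-type at 2 months asks what the loss of Mcl-1 in hepatocytes does in young mice, for which the labels name no tumor. Lpin1 differed by -3.31 (SE 0.73, 95% interval -4.87 to -1.76), which is 9.93-fold lower in knockout. It ranked 56 of 27092 tested genes by p, and its limma adjusted p of 0.20 did not pass the threshold of 0.05. The threshold was passed by 6 of the 27092 genes (0.0221%), and by none of the 3 lipins. The values of 20.5% of all tested genes were lower in every knockout than in every wild-type array, as those of Lpin1 and Lpin2 were, and 16.7% were higher in the same sense, as those of Lpin3 were. Against hemizygous mice, Lpin1 differed by -2.83 (SE 0.65, 95% interval -4.22 to -1.44, limma adjusted p = 0.18). In that comparison 14 genes (0.0517%) passed and no lipin did, and 10.2% of all genes were lower without overlap.

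The other Lpin1 probes gave the same size at 2 months: -3.31 from A_52_P483104 and -3.31 from A_52_P483105 against wild-type, and -2.85 and -2.81 against hemizygous liver. All knockout and wild-type arrays of 2 months lay on different slides. On the single slide that held both knockout and hemizygous liver, 1 knockout array had a level of 2.08 against a mean of 5.71 on 2 hemizygous arrays, a difference of -3.63. With the slide as a block, which rests on arrays of other groups, the knockout minus wild-type difference was -3.71 (SE 1.30).

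Lpin2 was also lowest in the knockout livers at 2 months. Its level was 0.75, 1.30 and 0.33 in knockout animals 137, 64 and 69, 2.11, 2.45 and 2.43 in hemizygous animals 27, 28 and 30, and 2.22 and 2.30 in wild-type animals 31 and 34. Every knockout value lay below all hemizygous and wild-type values, while the hemizygous and wild-type values overlapped. Knockout minus wild-type was -1.47 (SE 0.43, 95% interval -2.38 to -0.55), a 2.76-fold lower level, with limma adjusted p = 0.33. Knockout minus hemizygous was -1.54 (SE 0.38, 95% interval -2.36 to -0.72), with limma adjusted p = 0.23. On the slide shared by 1 knockout and 2 hemizygous arrays the difference was -1.53.

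Lpin3 levels of the 3 genotypes lay closer together at 2 months. Its level was -1.20, -1.25 and -1.32 in knockout animals 137, 64 and 69, -1.06, -1.15 and -1.74 in hemizygous animals 27, 28 and 30, and -1.40 and -1.55 in wild-type animals 31 and 34. The knockout values lay just above both wild-type values and within the hemizygous range. Knockout minus wild-type was 0.22 (SE 0.57, 95% interval -1.0 to 1.44, limma adjusted p = 0.95), and knockout minus hemizygous was 0.06 (SE 0.51). The sign of both turned negative with the slide as a block (-0.36 and -0.10). The interval was too wide to show that the levels are alike.

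Hemizygous and wild-type livers could be compared for the effect of losing part of the Mcl-1 dose. Lpin1 differed by -0.48 (95% interval -2.03 to 1.08), Lpin2 by 0.07 (-0.84 to 0.99) and Lpin3 by 0.16 (-1.06 to 1.38), and in all 3 cases the groups overlapped. The Lpin1 value was -0.08 with the slide as a block, and the Lpin2 value ran between 0.01 and 0.18 without hemizygous animal 28 or 27. By limma, 0 of 27092 genes (0%) passed the adjusted threshold in this comparison and 328 had an unadjusted p under 0.05. Mcl1 itself differed by -0.92 (SE 0.37, limma adjusted p = 1.0).

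**Figure D1:**
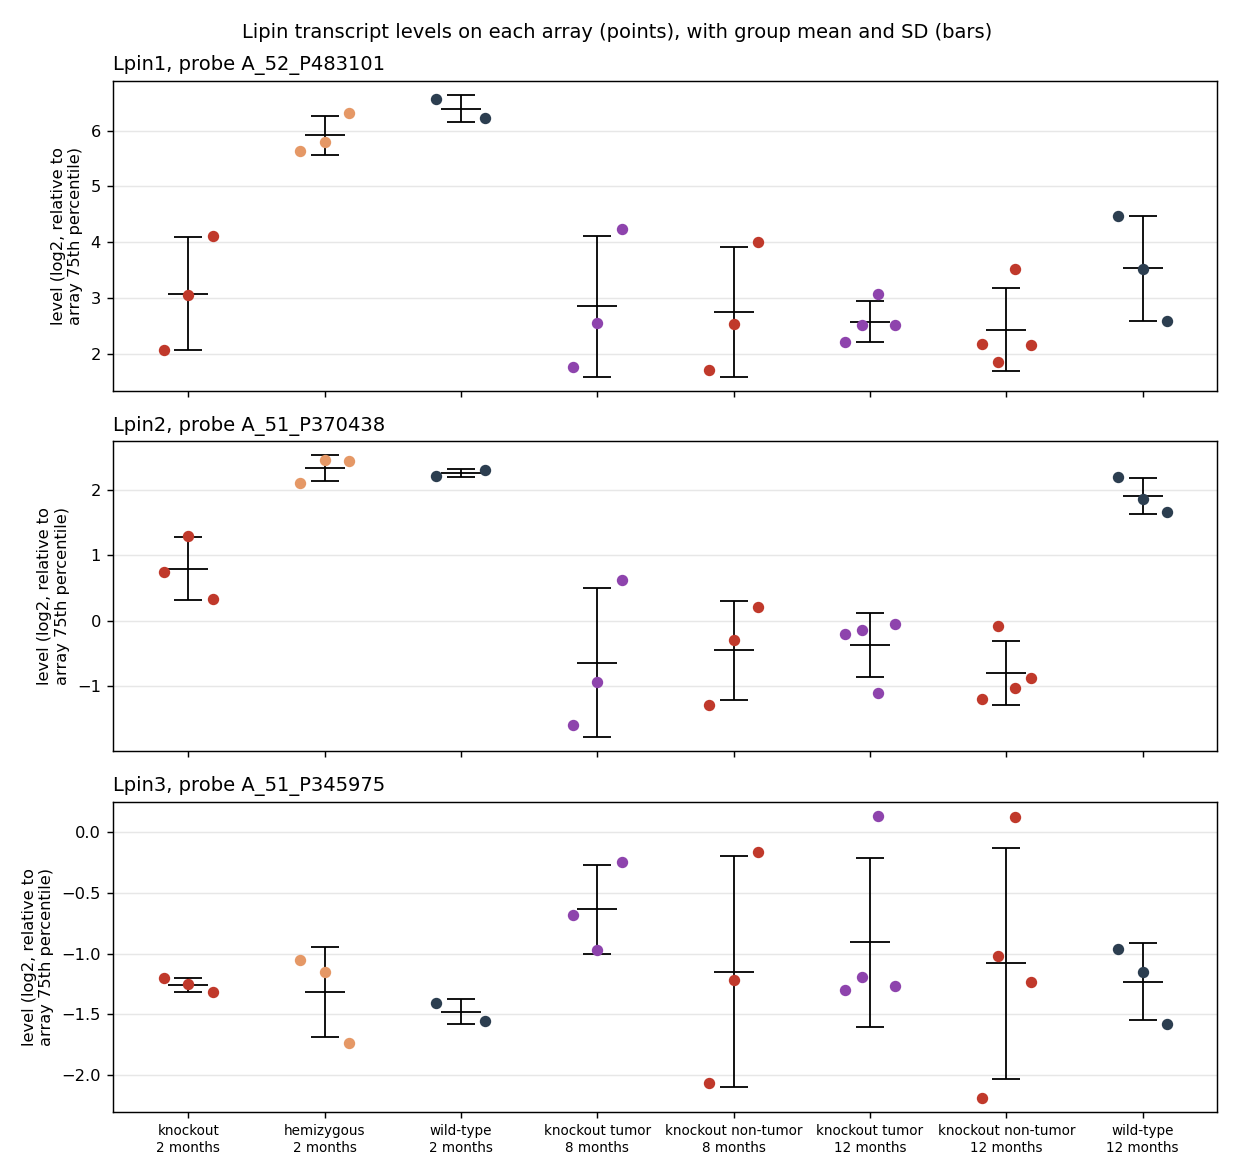
Level of each lipin on each of the 25 arrays (log2 of the processed signal minus the 75th percentile of the array), by genotype, age and tissue, with 1 panel per gene. Points are arrays, and bars are the group mean and SD. The 2-month knockout points of Lpin1 (2.08 to 4.11) and Lpin2 (0.33 to 1.30) lie below all hemizygous and wild-type points of that age, and Lpin3 lies between -2.19 and 0.14 in every group.

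At 12 months Lpin1 was nearer to its knockout level in wild-type liver too. Its level was 2.18, 1.86, 3.53 and 2.16 in the non-tumor liver of knockout animals 1109, 638, 702 and 793, against 4.48, 3.53 and 2.59 in wild-type animals 552, 641 and 1110. The groups overlapped, with knockout animal 702 as high as wild-type animal 641 and above animal 1110. Knockout minus wild-type was -1.10 (SE 0.61, 95% interval -2.40 to 0.20), with limma adjusted p = 0.38. The other Lpin1 probes gave larger gaps of -1.25 and -1.37. The threshold was passed by 5 genes (0.0185%), among which neither Lpin1 nor Lpin3 was found. No slide held both genotypes of this age. Wild-type animals 552 and 1110 were scanned on the second day, and animal 641 and all 4 knockout arrays on the first. Within the first scan day, 4 knockout arrays and 1 wild-type array differed by -1.09.

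Lpin2 was low in the knockout livers of 12 months and high in the wild-type livers of that age. Its level was -1.20, -0.09, -1.03 and -0.87 in non-tumor liver of knockout animals 1109, 638, 702 and 793, against 2.20, 1.86 and 1.66 in wild-type animals 552, 641 and 1110. The highest knockout value lay more than 1 log2 unit below the lowest wild-type value. The means of -0.80 ± 0.49 (SD, n = 4) and 1.91 ± 0.27 (n = 3) differed by -2.70, or 6.51-fold, and within the first scan day by -2.66. With normexp background correction and quantile normalisation the difference was -2.06. These are the values on which Lpin2 was selected, so they are given without a test. Over all genes 5.32% were lower in knockout without overlap.

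The Lpin3 values of the genotypes overlapped at 12 months. It stood at -2.19, -1.02, 0.12 and -1.24 in non-tumor liver of knockout animals 1109, 638, 702 and 793, against -0.96, -1.15 and -1.58 in wild-type animals 552, 641 and 1110. The knockout values lay on both sides of the wild-type range, with animal 702 above it and animal 1109 below it. The difference of 0.15 (SE 0.48, 95% interval -0.87 to 1.17, limma adjusted p = 0.91) became -0.25 without knockout animal 702.

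Age was compared within each genotype, using arrays that also served the comparisons above. In wild-type liver, Lpin1 averaged 3.53 ± 0.94 (SD, n = 3) at 12 months and 6.39 ± 0.24 (n = 2) at 2 months. All 3 older values lay below both younger ones. The difference of -2.86 (SE 0.73, 95% interval -4.42 to -1.31, 7.27-fold lower) had a limma adjusted p of 0.17, while 11 genes (0.0406%) passed. The same separation was seen in 13% of all genes. The other probes gave -2.96 and -2.82. Wild-type arrays of the 2 ages lay on different slides, and among them only those of animals 552 and 1110 were scanned on the second day.

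Lpin2 in the same wild-type mice averaged 1.91 ± 0.27 (n = 3) at 12 months and 2.26 ± 0.06 (n = 2) at 2 months, a difference of -0.36, with the highest older value of 2.20 just under the lower young value of 2.22. Lpin3 differed by 0.25 (95% interval -0.97 to 1.47, limma adjusted p = 0.91) and its groups overlapped.

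In knockout mice, non-tumor liver of 12 months was set against liver of 2 months. Lpin1 differed by -0.65 (SE 0.61, 95% interval -1.95 to 0.65, limma adjusted p = 0.60), with overlap, and this value ran to -1.15 without knockout animal 137 and to -0.13 without knockout animal 69. Its other probes gave -0.89 and -0.88. Lpin2 averaged -0.80 ± 0.49 (n = 4) at 12 months and 0.79 ± 0.48 (n = 3) at 2 months, a difference of -1.59 with no overlap, which 14.1% of all genes showed in the same direction. Lpin3 differed by 0.17 (95% interval -0.84 to 1.19). Here 2 genes (0.00738%) passed, and neither Lpin1 nor Lpin3 was among them.

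The change of the knockout gap with age was tested as an interaction for Lpin1 and Lpin3. For Lpin1 the term was 2.21, towards a smaller gap at 12 months (SE 0.95, 95% interval 0.19 to 4.24, unadjusted p = 0.034, limma adjusted p = 0.50). The other Lpin1 probes gave smaller terms of 2.06 and 1.94, with unadjusted limma p of 0.043 and 0.059. For Lpin3 the term was -0.07 (95% interval -1.66 to 1.51). For Lpin2 the term was -1.24, towards a larger gap at 12 months, given without a test. Over all genes 0 of 27092 (0%) passed by limma, and 2595 had an unadjusted p under 0.05.

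**Figure D2:**
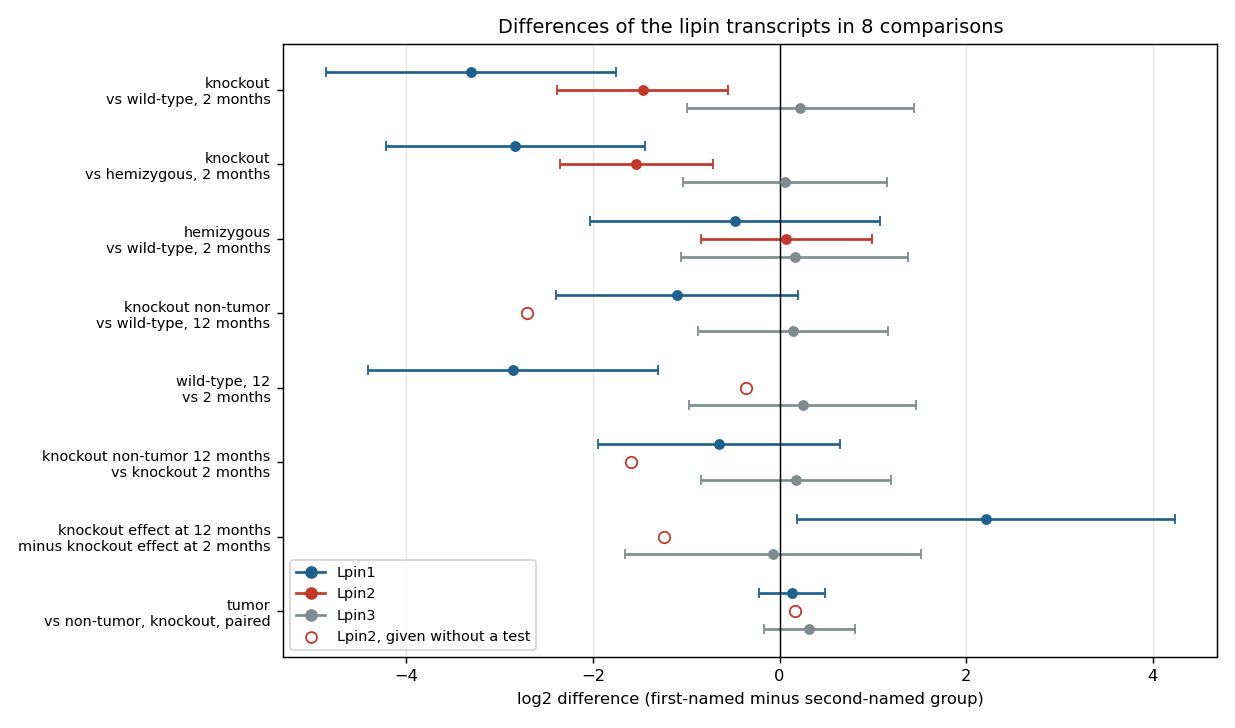
Log2 differences of Lpin1, Lpin2 and Lpin3 in 8 comparisons, each the first-named minus the second-named group, with 95% intervals from limma. Open symbols are Lpin2 values given without a test. Lpin1 differs most between knockout and wild-type liver of 2 months (-3.31) and between wild-type livers of 12 and 2 months (-2.86), while Lpin3 stays between -0.07 and 0.32.

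Tumor and non-tumor tissue of the same 7 knockout mice was compared to ask whether the tumors differ from the liver around them. In tumors, Lpin1 was 1.78, 2.55 and 4.24 at 8 months (animals 1347, 1287 and 934) and 2.21, 2.52, 3.08 and 2.52 at 12 months (animals 1109, 638, 702 and 793). In non-tumor tissue of the 8-month animals it was 1.71, 2.54 and 4.01. The animals kept their order at 8 months in both tissues, with animal 934 highest and animal 1347 lowest. Tumor minus non-tumor was 0.13 (SE 0.16, 95% interval -0.22 to 0.48, limma adjusted p = 1.0), higher in 6 of 7 animals, and animal 702 was the exception at -0.45. The median difference was 0.06, and in animals 1287, 1109 and 1347 the tissues differed by only 0.02, 0.03 and 0.06.

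Lpin2 was -1.60, -0.94 and 0.62 in tumors of animals 1347, 1287 and 934, and -0.19, -0.15, -1.10 and -0.05 in tumors of animals 1109, 638, 702 and 793. The non-tumor tissue of the 8-month animals stood at -1.28, -0.30 and 0.22. Tumor was higher in 3 of 7 animals, with a mean difference of 0.16 and single differences between -0.64 and 1.0. The 8-month animal 934 reached 0.62 in tumor, within the range of the 2-month knockout mice.

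Lpin3 was -0.68, -0.97 and -0.25 in tumors of animals 1347, 1287 and 934, and -1.30, -1.19, 0.14 and -1.26 in tumors of animals 1109, 638, 702 and 793. The non-tumor tissue of the 8-month animals stood at -2.06, -1.21 and -0.17. Animal 702 had the highest Lpin3 of all arrays in both of its tissues. Tumor minus non-tumor was 0.32 (SE 0.22, 95% interval -0.17 to 0.81, limma adjusted p = 1.0), higher in 4 of 7 animals, and the mean rested largely on animals 1347 (1.38) and 1109. The tissues of animal 1347 were the only pair on different slides and scan days, and without it, or with the slide as a block, the difference was 0.14. By limma 0 of 24570 genes (0%) passed in this comparison, and 1005 had an unadjusted p under 0.05.

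**Figure D3:**
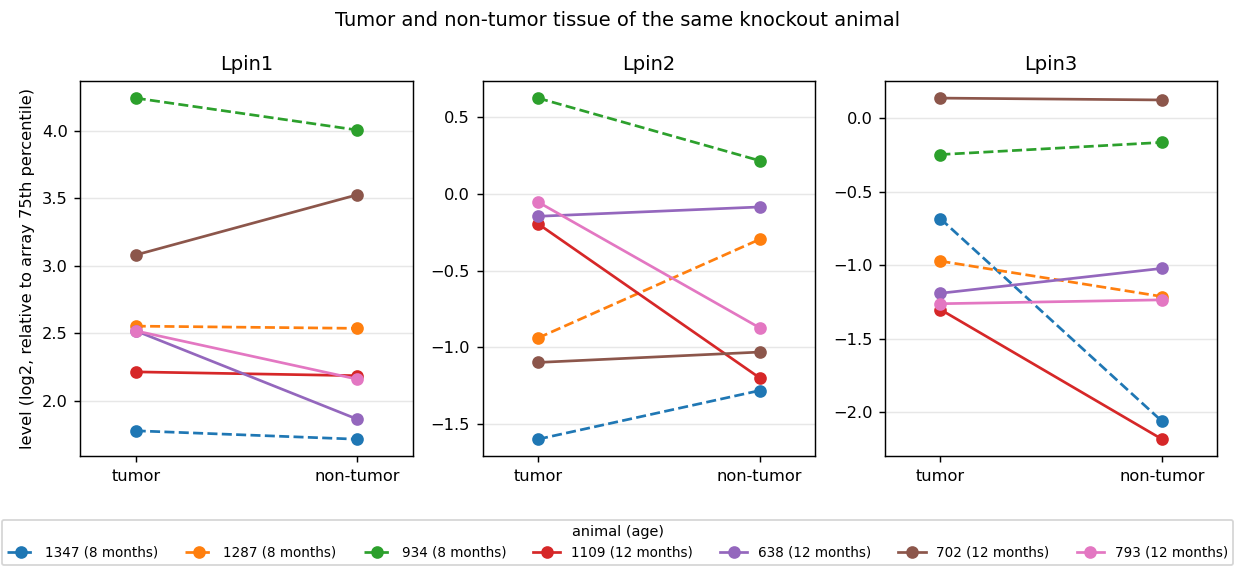
Lipin levels in tumor and non-tumor tissue of each of the 7 older knockout mice (log2, relative to the 75th percentile of the array), with lines joining tissues of 1 animal, dashed at 8 months and solid at 12 months. Lpin1 was higher in tumor in 6 of 7 animals, Lpin2 in 3 and Lpin3 in 4, and neither Lpin1 nor Lpin3 passed the test. The median differences were 0.06 for Lpin1, -0.06 for Lpin2 and 0.01 for Lpin3.

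Ordered by group mean from low to high, Lpin1 ran through non-tumor (2.43) and tumor (2.58) tissue of 12 months, non-tumor (2.75) and tumor (2.86) tissue of 8 months and knockout liver of 2 months (3.08), with tumor a little above non-tumor in each pair. Then followed wild-type liver of 12 months (3.53), hemizygous liver (5.91) and wild-type liver of 2 months (6.39). The only neighbours in this order whose values did not overlap were 12-month wild-type liver (highest 4.48) and hemizygous liver (lowest 5.64). For Lpin2 the order was non-tumor tissue of 12 months (-0.80), tumor (-0.64) and non-tumor (-0.45) tissue of 8 months and tumor of 12 months (-0.37), which all overlapped. Above them by mean came knockout liver of 2 months (0.79), whose lowest value of 0.33 lay below the highest 8-month tumor value of 0.62. Next came wild-type liver of 12 months (1.91) and then, overlapping each other, wild-type (2.26) and hemizygous (2.33) liver of 2 months. The highest 12-month wild-type value of 2.20 lay above the lowest hemizygous value of 2.11. For Lpin3 the group means lay between -1.48 in 2-month wild-type liver and -0.63 in 8-month tumors, and all neighbours in its order overlapped.

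The genes whose 8 group means most resembled each lipin were found by the root mean square difference of centred profiles over 10960 genes well above background on all arrays. For Lpin1, whose own profile had a root mean square of 1.46, the closest were the glucocorticoid-induced cochaperone Fkbp5 (0.333), the translation repressor Eif4ebp3 (0.364), the potassium channel Kcnk5 (0.415), the proprotein convertase Pcsk4 (0.416) and the uridine phosphorylase Upp2 (0.449). For Lpin2 (own value 1.28) they were the bile acid uptake transporter Slc10a1 (0.242), the major urinary protein Mup5 (0.270), the zinc finger factor Klf13 (0.326), the steroid dehydrogenase Hsd3b6 (0.341) and again Pcsk4 (0.357). The median over all genes was 1.46 for Lpin1 and 1.29 for Lpin2. Lpin3 has so flat a profile (own value 0.244, median over all genes 0.395) that its nearest genes, led by the tetraspanin Cd151 (0.0948), are other flat ones.

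**Figure D4:**
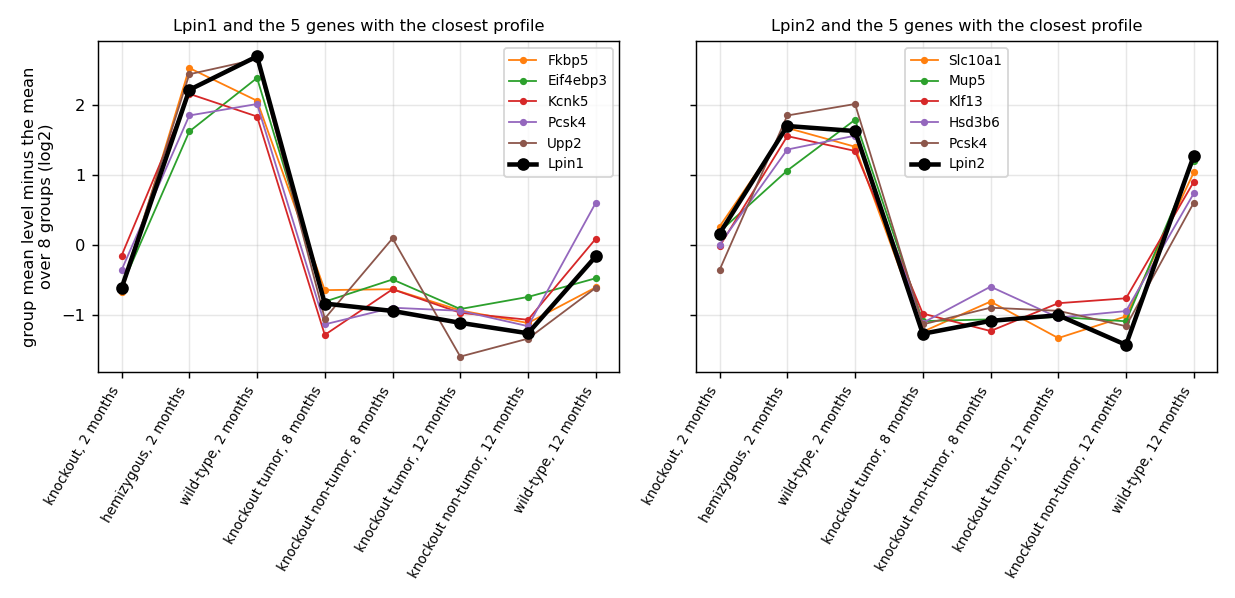
Group means minus their mean over the 8 groups (log2) for Lpin1 (left) and Lpin2 (right) in black, each with the 5 genes of the smallest root mean square difference. Lpin1 lies well below its 2-month wild-type mean in 12-month wild-type liver (3.53 against 6.39), while Lpin2 lies near its own (1.91 against 2.26).

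The genes before and after the lipin step were described from 12 lists with 97 genes, of which 94 were tested in the comparisons without tumors. Over all genes adjusted, limma called none of them between knockout and wild-type liver of 2 or 12 months or between the ages of wild-type mice, and 1, Fkbp5, between knockout and hemizygous liver. Unadjusted p was under 0.05 for 24 of the 94 (25.5%, against 8.89% of all genes) at 2 months and for 31 (33.0%, against 17.2%) at 12 months. For the age comparison of wild-type mice it was 20 (21.3%, against 10.6%). The median difference of all genes was -0.04, -0.12 and -0.04 in these comparisons. Of all genes, 47.4%, 43.1% and 47.5% were above 0 in them, the shares to set beside the counts of signs below. The share with p under 0.05 was also above that of all genes for knockout against hemizygous liver (25.5%, against 8.28%). So it was for the interaction (14.89%, against 9.58%) and for tumor against non-tumor tissue (7.53%, against 4.09%). It was below for knockout of 12 against 2 months (15.96%, against 17.17%) and hemizygous against wild-type liver (0%, against 1.21%). The lists were chosen with earlier results of these data known, so no enrichment is read from these shares.

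Upstream of the lipins, the 9 acyltransferases that make phosphatidate had median differences between knockout and wild-type liver of 0.24 at 2 months and 0.0023 at 12 months. At 12 months Agpat4 differed by 1.05 (SE 0.32) and Agpat2 by -0.90 (SE 0.28). Of the diacylglycerol kinases, which turn the product back into phosphatidate, 3 of 6 were above 0 at 2 months, and Dgka differed by -0.92 (SE 0.31). The 3 membrane lipid phosphate phosphatases, a separate family that acts on phosphatidate and related lipids at the cell surface, had medians of 0.16 and -0.19, with Plpp3 at -1.14 (SE 0.43) at 12 months. The CDP-diacylglycerol branch, which uses phosphatidate for cardiolipin and phosphatidylinositol, had medians of 0.10 and 0.20.

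Downstream of the lipins, the last step to triglyceride is made by Dgat1 and Dgat2. Dgat2 differed by -0.92 (SE 0.28, limma adjusted p = 0.35) at 2 months, and Dgat1 by -0.81 (SE 0.21, limma adjusted p = 0.11) at 12 months. In the synthesis of phosphatidylcholine and phosphatidylethanolamine from diacylglycerol, the choline kinase Chka differed by 3.16 (SE 0.81) at 2 months. At 12 months 7 of 10 genes of this list were below 0 (median -0.34), among them the rate-limiting enzyme Pcyt1a at -1.65 (SE 0.44). Only 43.1% of all genes were above 0 in that comparison, so nothing is read from this count. Chka also differed by 2.51 (SE 0.81) between wild-type livers of 12 and 2 months.

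Among triglyceride lipases, Pnpla2 differed by -1.14 (SE 0.32) between knockout and wild-type liver of 2 months and by -1.73 between wild-type livers of 12 and 2 months, comparisons that share the 2-month wild-type arrays. Its relative Pnpla3 averaged a level of -3.18 ± 1.61 in 2-month knockout liver (n = 3) and was not well above background on either wild-type array of that age, so no difference is given. Genes of lipid droplets and VLDL assembly were below 0 for 7 of 9 at 2 months (median -0.82) and for 9 of 9 at 12 months (median -0.83). At 12 months the lipoprotein Apob differed by -2.08 (SE 0.47, limma adjusted p = 0.10), Cideb, which lipidates VLDL, by -1.54 (SE 0.39), and Fitm1, a droplet-forming membrane protein, by -2.91 (SE 1.04).

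Of the genes listed for the control of lipin phosphorylation and for nuclear partners, 8 of 10 were below 0 at both ages. Ppara differed by -1.43 (SE 0.52) at 2 months and -1.46 (SE 0.44) at 12 months, and at 12 months Rptor and Mtor, parts of the kinase complex that phosphorylates lipin 1, differed by -2.07 (SE 0.49) and -0.84 (SE 0.22). Target genes of PPAR-alpha and PGC-1-alpha were below 0 for 11 of 12 at each age, with medians of -0.68 and -0.65. At 2 months the carnitine transferase Cpt1a differed by -1.46 (SE 0.36), the lipase inhibitor Angptl4 by -3.13 (SE 0.81) and the kinase Pdk4, the exception, by 3.11 (SE 0.83). At 12 months the oxidation enzyme Hadha differed by -1.06 (SE 0.23).

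Genes responsive to fasting and glucocorticoids were below 0 for 6 of 7 at 2 months (median -1.04) and for 5 of 7 at 12 months (median -0.22). Fkbp5, also the nearest profile to Lpin1, averaged -0.63 ± 0.79 in knockout (n = 3), 2.58 ± 0.35 in hemizygous (n = 3) and 2.12 ± 1.06 in wild-type livers (n = 2) of 2 months. It fell by 3.21 in knockout against hemizygous liver (SE 0.52, limma adjusted p = 0.045), the single call among all 94 genes in that comparison. No gene passed there, and the Fkbp5 call was lost (as were those of the neutrophil markers S100a8 and S100a9), with Xist as a covariate or without knockout animal 64 or any 1 of hemizygous animals 27, 28 and 30. Between wild-type livers of 12 and 2 months Fkbp5 differed by -2.67 (SE 0.58) and the glucocorticoid-induced Tsc22d3 by -1.52 (SE 0.42). Clock genes had medians of -1.72 between knockout and wild-type liver of 2 months and -1.02 between wild-type livers of 12 and 2 months. The clock activator Arntl differed by 4.3 (SE 0.93) and 3.51 (SE 0.93) in these comparisons, which share the 2-month wild-type arrays. The part of feeding state or hour of collection in the Lpin1 values was not tested.

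**Figure D5:**
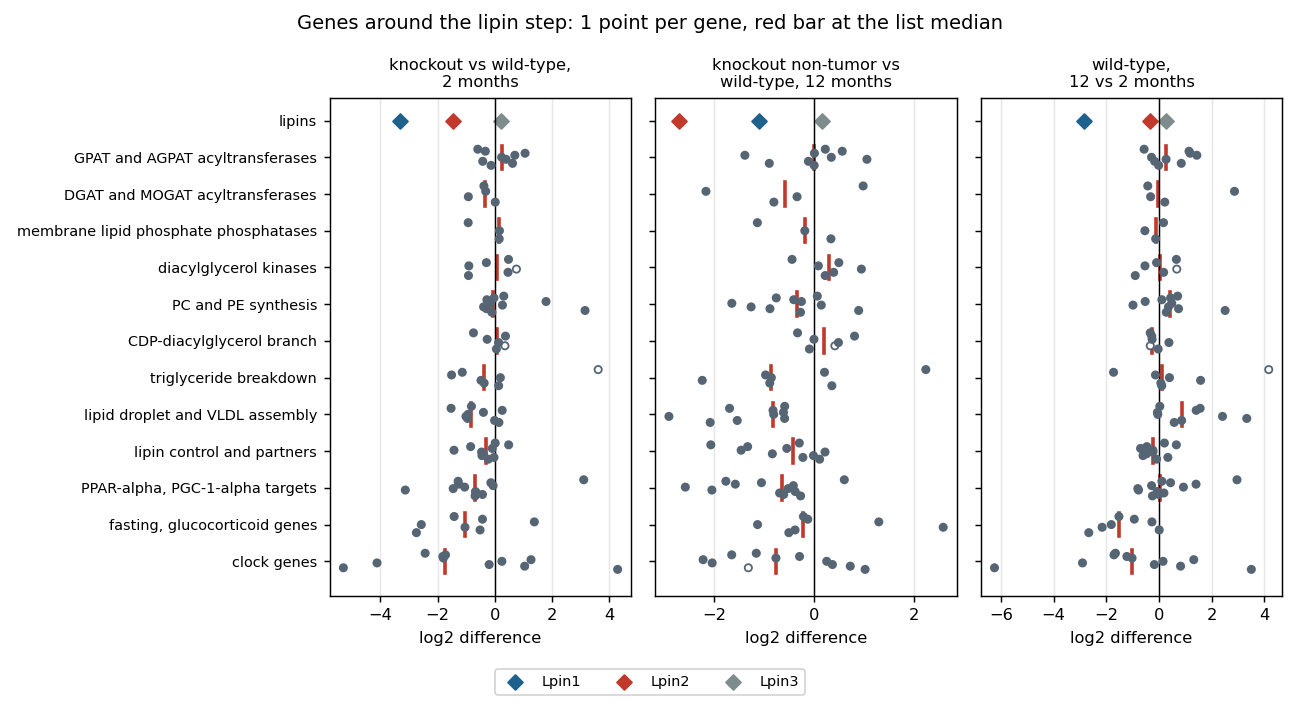
Log2 differences of the lipins (diamonds) and of the genes of 12 lists around the lipin step (1 point per gene, red bar at the list median) in 3 comparisons. Open points are genes not well above background on any array of a compared group. The lists of PPAR-alpha and PGC-1-alpha targets (11 of 12 genes below 0) and of lipid droplet and VLDL assembly (7 of 9 at 2 months and 9 of 9 at 12 months below 0) lie to the left of 0 in both knockout comparisons. Of all tested genes, 47.4% at 2 months and 43.1% at 12 months were above 0 in these comparisons.

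Markers of other cells differed with genotype beside these values. None was called by limma between knockout and wild-type liver, but 2 of 5 neutrophil markers, S100a8 and S100a9, rose in knockout against hemizygous liver of 2 months (limma adjusted p = 0.027 each), where the list's median difference was 4.03. S100a8 and Retnlg were well above background on 0 of 3 hemizygous arrays, and S100a9 on all 3. The sizes of the S100a8 difference and of the list median therefore rest on hemizygous values near background. All 8 macrophage and Kupffer cell markers were higher than 0 as a difference between knockout and wild-type liver at both ages, with medians of 1.64 and 1.61. Their mean level per array was 1.16 to 1.36 in knockout and -0.50 to -0.35 in wild-type liver at 2 months, where 1 marker was not above background in the wild-type group, and 1.21 to 1.99 in non-tumor knockout and -1.21 to 0.95 in wild-type liver at 12 months. Of 5 neutrophil markers 4 were above 0 at both ages, with a mean level of -2.21 to -0.57 in knockout and -4.18 to -3.94 in wild-type liver at 2 months, where 2 of them, S100a8 and Retnlg, were not well above background in the wild-type group. At 12 months the neutrophil levels overlapped, at -2.04 to -0.68 in non-tumor knockout and -3.34 to -1.01 in wild-type liver. Of 7 stellate cell markers 7 were above 0 at 2 months and 4 at 12 months. All 7 T and NK cell markers were above 0 at 12 months (median 1.13), with a mean level of -2.36 to -1.68 in non-tumor knockout and -4.51 to -2.66 in wild-type liver. All 5 tested adipocyte markers were below 0 at 12 months (median -1.08), with a mean level over 6 markers of -4.79 to -2.12 in non-tumor knockout and -2.56 to -1.79 in wild-type liver. Of these markers, Adipoq and Plin1 were each well above background on only 1 of 4 knockout and 1 of 3 wild-type arrays, and Retn on 1 and 2. The 6 hepatocyte markers, of which Hnf4a also counts among the lipin partners and Tat among the fasting genes, had medians of -0.44 and -0.36. Their mean level per array was 6.81 to 7.14 in knockout and 7.27 to 7.41 in wild-type liver at 2 months. Hemizygous liver, at 7.02 to 7.31, overlapped both. At 12 months the hepatocyte levels overlapped, at 6.33 to 6.73 in non-tumor knockout and 6.58 to 7.16 in wild-type liver. The part of cell composition in the lipin values was not tested.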

How the data were processed

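The authors deposited 1 file of intensity values per array, written by Agilent Feature Extraction per the file headers, and a series matrix of log2 values. The processed signal is background-subtracted and not scaled between arrays. The submitters' processing notes name limma without its role. How the matrix was normalised is not given in the sources used here.

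Outlier spots were left out, spots of a probe averaged, and log2 signals set relative to each array's 75th percentile over 43379 non-control spots. RefSeq names (GRCm38.p6) were found for 24375 probes (59.2%), and the brightest probe stands for a gene. Probes well above background on at least 2 of 18 arrays (3 of 14 for pairs) were tested with limma 3.58.1 in R 4.3.3, two-sided, with Benjamini-Hochberg adjustment over all of them and a threshold of 0.05. The first model held 18 arrays without tumors in 6 groups, including 8-month non-tumor liver. The second took tumor and non-tumor tissue with the animal as a block, since animal numbers pair the tissues. Each tumor correlated most with its own non-tumor tissue in 5 of 7 animals (r = 0.14 to 0.62). All pairs except that of animal 1347 shared a slide, so animal and slide cannot be told apart in them. Animal 1347 had the lowest r, and its own non-tumor tissue was not the closest. The model was tested on simulated data. P-values set a difference against the spread between these animals, and the number of arrays limits precision.

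The members and gene lists were chosen with earlier results of these data known. Named are the lipins, Mcl1, up to 3 list members with the smallest p per comparison and the 5 closest profiles per lipin. Alternatives covered background correction, normalisation, matrix values, filters, probes, batches, Xist as a covariate, samples fitted and each array left out.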

Additional observations from a re-analysis of the deposited data

Results flagged for a closer look

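In the 12-month tumors, Lpin2 of animal 702 lay far below the other 3, at a level of -1.10 (gap over range 0.864, above the critical value of 0.829 for 4 samples). In the same tumor Lpin3 lay far above the other 3, at 0.14 (gap over range 0.923). In the non-tumor liver of animal 702, Lpin2 was -1.03 and Lpin3 0.12. Of 9 sets of values checked, chance flags about 1 in 20.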

How the results depend on the processing

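No tested lipin difference passed the threshold under any alternative run, and all Lpin1 and Lpin2 differences kept their sign. Leaving out 1 array or animal at a time gave -3.83 to -2.81 for Lpin1 and -1.72 to -1.24 for Lpin2 between knockout and wild-type liver of 2 months. For wild-type mice of 12 against 2 months the Lpin1 range was -3.33 to -2.39, and its lowest adjusted p was 0.052, without wild-type animal 641. In the 12-month knockout comparison Lpin1 ranged from -1.57 to -0.63. With normexp and quantile normalisation, the Lpin2 values were -2.06 in the 12-month knockout comparison and -0.81 in the interaction. The cause was not tested.

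The 14 changes of sign were all in Lpin3. With the slide as a block its difference was -0.36 in knockout against wild-type, -0.10 in knockout against hemizygous, -0.26 in hemizygous against wild-type at 2 months and -0.22 in wild-type at 12 against 2 months. With Xist as a covariate, knockout minus hemizygous was -0.033. Its interaction was 0.000126 with quantile normalisation and 0.0064 with the slide as a random block, a setting chosen after seeing the data. Leaving out 1 array gave Lpin3 ranges of -0.15 (without hemizygous animal 30) to 0.19 in knockout against hemizygous and -0.25 (without knockout animal 702) to 0.52 in the 12-month knockout comparison, where it was -0.03 without wild-type animal 1110. The ranges were -0.23 (without animal 702) to 0.54 in knockout of 12 against 2 months and -0.47 to 0.30 in the interaction, which was above 0 without knockout animal 1109 or wild-type animals 34 or 552. The cause was not tested.

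Without a replicate block, tumor minus non-tumor stayed at 0.13 for Lpin1, 0.16 for Lpin2 and 0.32 for Lpin3. These sizes could not change, since every animal gives both tissues once. By limma 0 genes passed, so the pairing changed no call. The slide as a fixed block could not estimate the comparisons with 12-month non-tumor liver. Quantile normalisation moved the median of all genes by 0.17 in the 12-month knockout comparison, 0.16 in knockout of 12 against 2 months and 0.11 in the interaction.

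Counts of genes past the threshold depended on the setting. Knockout against wild-type at 2 months had 6, but 13 with normexp, 23 with quantile normalisation, 17 with matrix values or the filter on every array, 31 with trend and robust options, 41 and 0 with a fixed and a random slide block, 19 with all arrays, 0 with the compared groups alone and 27 with Xist. Knockout against hemizygous had 14, but 70 with normexp, 51 with matrix values, 30 with the filter, 62 with trend, 41 with fixed slides, 23 with all arrays, 6 alone and 0 with Xist. Hemizygous against wild-type had 0, but 2 with quantiles, 1 unfiltered and 18 with fixed slides. The 12-month knockout comparison had 5, but 490 with normexp, 216 with matrix values, 3 unfiltered, 476 with the filter, 322 with trend, 2 with random slides, 3568 with scan day, 0 alone and 8 with Xist. Wild-type at 12 against 2 months had 11, but 31 with normexp, 64 with quantiles, 26 with matrix values, 35 with the filter, 41 with trend, 104 and 0 with fixed and random slides, 83 with scan day, 0 alone and 19 with Xist. Knockout of 12 against 2 months had 2, but between 0 and 1489, the highest with the groups alone and 972 with scan day. The interaction had 0, but 232 with scan day and at most 5 otherwise. Without 1 array the counts ran to 24, 28, 2, 2830, 1692, 1022 and 289 in this order, highest without knockout animal 934 (24 and 28), wild-type animal 31 (2), knockout animal 638 (2830 and 289) or wild-type animal 641 (1692 and 1022), and lowest at 0 except 1 for the 12-month knockout comparison.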
